A study of Mus musculus with 40 samples.

Results

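The 10 genes described here carry the insulin and IGF signal at and around the cell surface, and were taken as the rows of the aortic and renal count tables whose gene name is Igf1, Insr, Igf1r, Igf2r, Irs1, Irs2, Igfbp1, Igfbp3, Igfbp4 or Igfbp5. All 10 were found in both tables, among 55335 genes listed for aortas and 55382 for kidneys. RNA came from mice of the EC-EGFR model on a C57BL/6 background, either wild type (WT) or knockout (KO). KO mice carry floxed alleles of EGFR (EGFR flox/flox) together with a Cre recombinase under the Tie2 promoter (Tek-cre), and WT mice carry the same Cre without loxP sites. This Cre is not inducible, and its promoter is also active in blood-forming cells, so the deletion is not restricted to the vessel wall. The Cre line is of C57BL/6J background. For this substrain the paper cites reports of higher blood glucose, glucose intolerance and lower insulin secretion, and names it as a limit of its diet results. From an age of 6 weeks mice received a standard fat diet (SFD, the labels' SD, with 10% of energy from fat) or a high fat diet (HFD, 60%) for 18 weeks, after a transition week on an equal mixture for the HFD mice. Each genotype and diet holds 5 mice per tissue, 40 libraries in all, and the labels do not say which aorta and which kidney came from the same mouse.

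Insulin and the insulin-like growth factors act through related receptor tyrosine kinases. Insr binds insulin, Igf1r binds IGF-1, and both pass the signal to the adaptor proteins Irs1 and Irs2, from where PI3K, AKT and mTOR promote growth and glucose uptake while FOXO transcription factors are kept out of the nucleus. IGFs in blood and tissue are mostly bound to IGF-binding proteins, which set how much ligand reaches the receptor, and Igf2r, the cation-independent mannose-6-phosphate receptor, takes up IGF-2 for breakdown in lysosomes instead of signalling. Expression of Igfbp1 and Irs2 is held down by insulin in liver through FOXO, and a high fat diet is a standard way to make mice obese and insulin resistant.

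The promoter of Igfbp1 is shown because the insulin response of this gene was mapped to a short element there, and because Igfbp1 was among the genes that differed between diets in kidneys. The window covers 250 bases before and 50 bases from the start of the gene (RefSeq, GRCm38.p6, chr11:7197537-7197836, plus strand). Capitals mark the match to the letters CAAAACA, the core of that element.
Igfbp1: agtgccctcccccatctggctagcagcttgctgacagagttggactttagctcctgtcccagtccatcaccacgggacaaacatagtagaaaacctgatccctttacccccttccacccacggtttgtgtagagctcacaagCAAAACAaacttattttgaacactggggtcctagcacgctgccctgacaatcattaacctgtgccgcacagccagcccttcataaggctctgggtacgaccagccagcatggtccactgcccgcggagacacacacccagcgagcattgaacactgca
The match lies 108 to 102 bases before the start. CAAAACA or its reverse complement occurs in 6.28% of 32851 such windows. Of the 9 genes of the group with a window in the table (all but Insr), Irs1 and Irs2 also hold it, on the minus strand, at 111 to 105 and 32 to 26 bases before the start of Irs1 and at 37 to 31 bases before that of Irs2. The forkhead letters GTAAACA, found in 3.65% of windows on either strand, were in none of the 9. A match describes the letters only.

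Levels are given as FPM, here the counts scaled by the TMM-normalized library size (edgeR's CPM). Total counts ranged from 17520161 to 36452741 per library in aortas and from 19643033 to 48833447 in kidneys. Markers went with the labelled tissues. The 8 marker genes of kidney tubules and podocytes summed to between 10276 and 12228 FPM in kidneys and between 0.70 and 2.34 FPM in aortas, while 8 smooth muscle markers summed to between 25923 and 41473 FPM in aortas and between 79.9 and 134 FPM in kidneys. Tagln and Cnn1 among them, and Cdh5 among 10 endothelial markers, were at 0 in every library. Since the other smooth muscle markers were high in aortas, a 0 throughout is not read here as absent expression. Its source was not tested. Egfr, the targeted gene, is also expressed outside endothelium. Under SFD it was at 44.0 ± 5.70 FPM in KO and 39.6 ± 8.93 FPM in WT aortas (SD, n = 5). In kidneys it was at 53.1 ± 4.33 and 56.3 ± 5.81 FPM, so Egfr levels in these libraries do not check the deletion. The paper checked it in other assays, by PCR for the excised fragment in lung or aortic DNA and by qRT-PCR of Egfr mRNA in lung. It reports successful excision. Pairs of libraries from different groups were nearly the same: R-1 (WT SFD) and R-12 (KO SFD) in aortas, and a1 (KO HFD) and a12 (WT HFD) in kidneys. They differed by less than the sampling noise, with a median chi-square over genes of 0.0269 and 0.0256, where 0.455 is the value for noise alone and the next nearest pairs had 1.55 and 1.59. The labels do not tell which library of a pair belongs to its group, so both were kept. The called results of the 10 members are also given without the pair, those of other genes are not. In aortas no member was called with or without it.

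Igfbp1 rose and Igf2r fell in kidneys of mice on HFD, and no other gene of the group passed the test in either tissue. A gene counted as changed with an adjusted p under 0.05 in edgeR's quasi-likelihood test, adjusted over every gene tested in the tissue. Averaged over both genotypes, HFD against SFD gave 2 of 10 genes in kidneys, against 16.4% of all 15943 genes tested (2615). In WT kidneys it was 1 of 10 (Igf2r), against 6.71% of all genes. In KO kidneys it was 0 of 10, against 6.34% of all genes. At an unadjusted p under 0.05 stood 1 of 10 (Igfbp1), against 19.5% of all genes. The DESeq2 Wald test and edgeR's likelihood ratio test, whose shares of all genes are not given here, each called that 1 gene. At the shares of the main test the group as a whole was close to the background of a diet that moved many renal genes. Its median log2 fold change was -0.01, against -0.0012 for all genes.

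**Figure D1:**
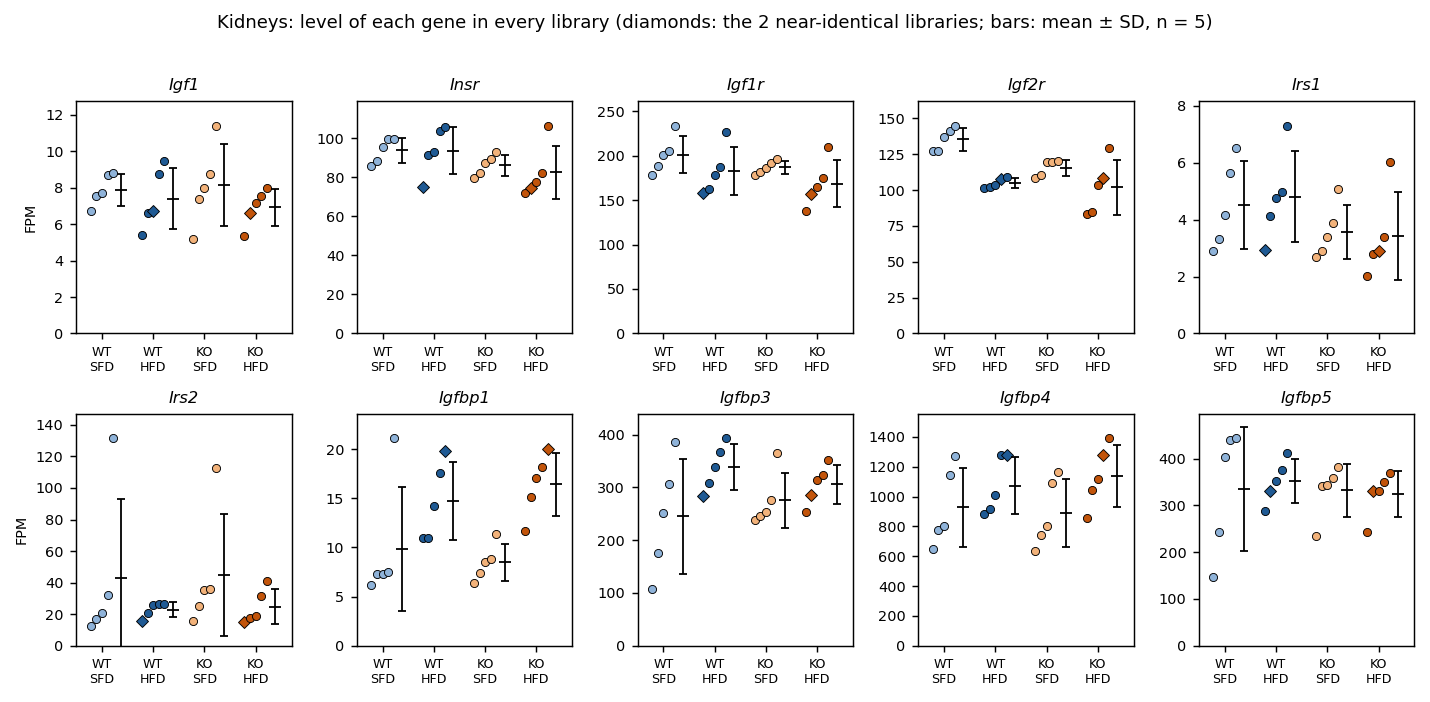
Level of each of the 10 genes in the 20 kidney libraries, in FPM on linear axes from 0, by genotype and diet. Points are libraries, diamonds the near-identical libraries a1 and a12, and bars the mean ± SD (n = 5 each, the bar of Irs2 in WT SFD cut at 0). Igf2r in WT lay between 127 and 144 FPM under SFD and between 101 and 109 under HFD, and Igfbp1 in KO between 6.34 and 11.3 under SFD and between 11.7 and 19.97 under HFD.

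Igf2r (ENSMUSG00000023830, chromosome 17, 12682406 to 12769664, minus strand, GRCm38) was the receptor that fell. In WT kidneys under SFD it was at 127, 127, 137, 144 and 141 FPM, and under HFD at 103, 108, 102, 101 and 109 FPM. Every HFD library lay below every SFD library. The log2 fold change was -0.37 with a 95% interval of -0.56 to -0.18 (adjusted p = 0.0166 in edgeR), a level 0.774 times that under SFD. In KO kidneys the values were 108, 119, 120, 119 and 110 FPM under SFD and 108, 84.3, 129, 83.6 and 103 FPM under HFD. Here the groups overlapped, because the HFD library a3 was the highest of the 10, and the log2 fold change of -0.18 had an adjusted p of 0.285 and did not pass. Without a3 it was -0.27 with an adjusted p of 0.0406. Whether the diet acted differently in the genotypes was tested directly as an interaction, with a log2 size of 0.19 (95% interval -0.08 to 0.46, adjusted p = 1.00), so the data do not show that it did. Averaged over genotypes, Igf2r fell by 0.28 on the log2 scale (standard error 0.06), with an adjusted p of 0.00542.

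Without a1 and a12 the fall was -0.38 in WT (adjusted p = 0.0269) and -0.29 averaged over genotypes (adjusted p = 0.00804). Igf2r is imprinted, and the antisense RNA Airn overlaps it on the plus strand. The strand setting of the counting is not given in the sources used here, so reads in the shared stretch cannot be assigned to either with certainty. Airn itself was at 13.9 ± 3.84 FPM in WT SFD and 9.77 ± 3.37 FPM in WT HFD kidneys (SD, n = 5), well under Igf2r. Since the samples are whole tissue, fewer cells that express a gene and less RNA per cell cannot be told apart.

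Igfbp1 (ENSMUSG00000020429, chromosome 11, 7197782 to 7202546, plus strand) was the binding protein that rose. In KO kidneys it was at 7.35, 8.83, 11.3, 6.34 and 8.53 FPM under SFD and at 19.97, 15.2, 11.7, 18.1 and 17.04 FPM under HFD, so that every HFD library lay above every SFD library. The log2 fold change was 0.95 (standard error 0.29), with an adjusted p of 0.0534 that just missed the threshold. In WT kidneys 4 SFD libraries lay between 6.14 and 7.53 FPM and the fifth, a18, at 21.1 FPM, while HFD libraries were at 14.2, 19.8, 17.6, 10.9 and 10.9 FPM. The single library a18 was therefore above every HFD library, and the log2 fold change of 0.58 had an adjusted p of 0.271. Without a18 it was 1.07 with an adjusted p of 0.00250.

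Averaged over genotypes, Igfbp1 rose by 0.77 on the log2 scale (95% interval 0.34 to 1.19, adjusted p = 0.0125), 1.70 times the level under SFD, and it was the member that also passed a fold change over 1.5 with a mean over 5 FPM. Without a1 and a12, the highest HFD library of each genotype, the rise was 0.66 (adjusted p = 0.0427), and in KO 0.87 (adjusted p = 0.111). The interaction was 0.37 (95% interval -0.47 to 1.21, adjusted p = 1.00), so a difference between genotypes was neither shown nor bounded closely. Without a18 it was -0.11 (adjusted p = 1.00), so its sign rested on that library.

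The library a18 stood apart in more than Igfbp1. It also had the lowest Igfbp3 (107 FPM) and Igfbp5 (147 FPM) of all 20 kidneys. Summed markers of endothelium were lowest there (207 FPM, where the lowest library of each other group had between 360 and 486), and so were those of fibroblasts (29.3 FPM, against lowest values from 53.1 to 68.7). The part of this difference in the result for Igfbp1 was not tested. Over kidneys as a whole, marker sums of tubules and podocytes were 10276 to 11592 FPM under HFD and 11083 to 12228 under SFD, with 0 of 8 genes called in WT and 1 in KO. Of 6 fibroblast markers 1 was called in WT and 2 in KO, of 12 adipocyte markers tested 2 in WT and 1 in KO, and of 9 endothelial markers tested 0 in either. Of 8 skeletal muscle markers, Acta1 was at 0 in every library, as were Tagln and Cnn1 above. Another of them, Pvalb, which distal tubules also express, rose from 22.3 to 53.5 FPM in WT and from 22.0 to 68.3 FPM in KO.

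**Figure D2:**
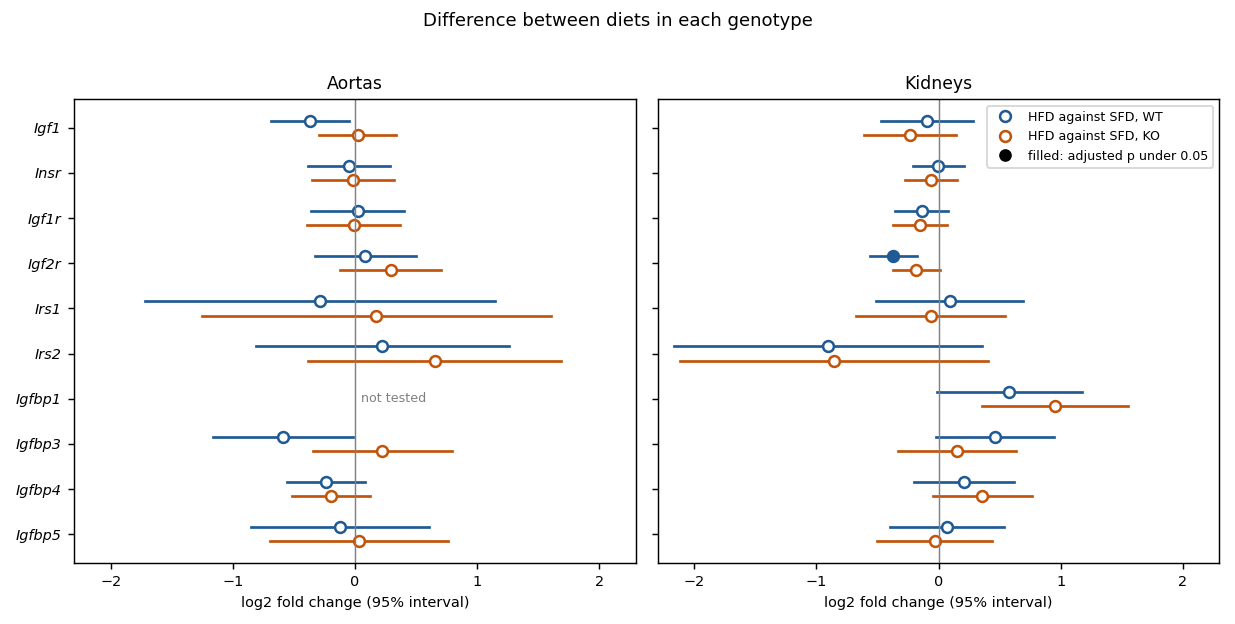
Log2 fold change of HFD against SFD with its 95% interval from edgeR for each gene, WT in blue and KO in orange, aortas left and kidneys right. Filled points have an adjusted p under 0.05, and the single filled point is Igf2r in WT kidneys (-0.37). Igfbp1 was too low in aortas to be tested.

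The other receptors and the adaptors did not pass the test in kidneys. Insr, the insulin receptor, was at 93.8 ± 6.55 FPM under SFD and 93.7 ± 12.2 FPM under HFD in WT, and at 86.2 ± 5.41 and 82.5 ± 13.8 FPM in KO (SD, n = 5). Its log2 fold changes of -0.00 in WT and -0.06 in KO had 95% intervals from -0.21 to 0.21 and from -0.27 to 0.15, which do not reach a change of 1.5-fold. Igf1r, the IGF-1 receptor, was lower under HFD in both genotypes by small amounts, -0.14 in WT and -0.15 in KO (adjusted p = 0.506 and 0.470). Irs1 was the rarest member per length in kidneys, at 2.02 to 7.29 FPM, and its interval of -0.51 to 0.69 in WT is correspondingly wide.

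Irs2, the adaptor that insulin represses, had its mean under SFD set by single libraries. In WT SFD kidneys it was at 16.9, 131, 12.5, 20.8 and 32.4 FPM, and in KO SFD kidneys at 25.4, 15.6, 112, 35.4 and 35.9 FPM. HFD libraries ran from 15.4 to 26.4 FPM in WT and from 15.3 to 41.1 FPM in KO, where the other 4 SFD libraries of each genotype ran from 12.5 to 32.4 and from 15.6 to 35.9 FPM. The log2 fold changes of -0.90 and -0.86 (adjusted p = 0.441 and 0.467) rested on the high libraries a17 and a8: without a17 the value in WT was 0.15, and without a8 that in KO was -0.18. Both libraries, and a9, stood out in the mean log2(FPM + 1) of 11 immediate-early genes, at 5.70, 5.44 and 5.93, where the other 17 kidneys had at most 2.62. Irs2 in a9 was 35.4 FPM, against a median of 25.5 FPM over the 20 kidneys. Without all 3 kidneys the value averaged over genotypes was 0.05 instead of -0.88, and the part of the immediate-early level in it was not tested.

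Igfbp3 and Igfbp4 had positive log2 fold changes under HFD that did not pass the test. Igfbp3, the main carrier of IGFs in blood, was at 176, 385, 107, 250 and 307 FPM in WT SFD and at 393, 284, 366, 339 and 309 FPM in WT HFD kidneys, which gave 0.46 on the log2 scale with an adjusted p of 0.278. Without a18 it was 0.29 (adjusted p = 0.426). In KO it was 0.15 (adjusted p = 0.776), and the groups overlapped in both. Igfbp4, which inhibits IGF action, had 0.21 in WT and 0.36 in KO (adjusted p = 0.602 and 0.326). Its average over genotypes was 0.28 with an unadjusted p of 0.0527, and it passed in KO and on average when a score of clock genes was added as a covariate (adjusted p = 0.0158 and 0.00560). Igfbp5 had 0.07 and -0.03 (-0.10 in WT without a18), and Igf1, the ligand, was low in kidneys at 5.17 to 11.4 FPM, with -0.10 in WT and -0.23 in KO (adjusted p = 0.826 and 0.526).

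Other genes of the pathway were looked at in the same fit, with a1 and a12 kept. Of 72 other genes of insulin and IGF signalling, listed by role, 62 could be tested, and 14 were called for HFD averaged over genotypes, 8 higher and 6 lower, against the 16.4% of all genes. In WT 6 of the 62 were called, against 6.71% of all genes, and in KO 6 of the 62, against 6.34%. No test compared these shares, so they say nothing particular about the pathway, and the genes named below are single results. Their median log2 fold change was -0.03, against -0.0012 for all genes. Ins1, Irs4, Cbl, Pik3cb, Foxo4, Cish and Sesn3 were listed at 0 in all libraries of both tissues. As with Tagln and Cnn1, such a 0 is not read as absent expression.

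The growth hormone receptor Ghr, which drives Igf1 expression, was at 796 to 906 FPM under SFD and 569 to 682 FPM under HFD in WT, and at 789 to 864 and 514 to 614 FPM in KO. No HFD library reached any SFD library. It fell by 0.46 and 0.54 on the log2 scale (adjusted p = 0.000146 in WT and 2.28e-05 in KO). Mtor, the growth kinase downstream of AKT, fell from 292 to 199.8 FPM in WT and from 260.0 to 172 FPM in KO, by 0.55 and 0.59 on the log2 scale (adjusted p = 0.000471 and 0.000205). Averaged over genotypes, Pik3cd, a catalytic PI3K subunit best known from leukocytes, rose by 0.52, and Pik3r2 and Gsk3a fell by 0.23 and 0.16. Slc2a4, the insulin-regulated glucose transporter GLUT4, fell in KO by 0.40 (adjusted p = 0.0496), but had -0.07 in WT (adjusted p = 0.803) and -0.23 on average (adjusted p = 0.0620), neither of which passed.

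Among inhibitors of the receptors, Grb14, Grb10 and Ptprf were each higher under HFD on average, with log2 fold changes of 0.29, 0.24 and 0.29 (adjusted p = 0.00157, 0.0245 and 0.00684). In KO, Grb14 ran from 15.3 to 18.2 FPM under SFD and from 18.7 to 24.1 FPM under HFD, without overlap. Genes that insulin holds down through FOXO in liver include G6pc and Pck1, enzymes of glucose production that the proximal tubule also makes. G6pc rose from 409.9 ± 75.1 to 748 ± 158 FPM in WT and from 369 ± 137 to 812 ± 161 FPM in KO (SD, n = 5), log2 fold changes of 0.87 and 1.14 (adjusted p = 0.0272 and 0.00438), with no overlap between diets in either. Pck1 rose by 0.54 on average (adjusted p = 0.00393). Fasn, which insulin raises through SREBP-1c, fell by 1.26 in WT (adjusted p = 0.0197), where SFD libraries spread from 53.1 to 266 FPM and overlapped the HFD range of 48.9 to 64.3 FPM. In KO Fasn had -0.31 and was not called (adjusted p = 0.648). Stc2, a secreted inhibitor of the protease that frees IGFs from Igfbp4, rose by 0.92 in WT (adjusted p = 0.0421), at 1.23 to 3.01 FPM under SFD and 2.61 to 5.36 FPM under HFD, and had 0.60 in KO (adjusted p = 0.215).

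Genes whose levels over the 20 kidneys were most like those of the called members were named by Pearson's r of log2(FPM + 1), as a description without a test. For Igf2r they were Malt1 (0.91), Aldh3a2 (0.91) and Klhdc10 (0.90). For Igfbp1 they were Espn (0.91), Agtrap (0.89) and Camk1 (0.88). The 20 libraries share the diets and the near-identical pair, and with that pair counted as 1 library the values lay between 0.87 and 0.91.

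In aortas 0 of the 9 members that could be tested were called for HFD. The background was 0.0132% of 15122 genes in WT (2 genes), 0% in KO and 0.0529% averaged over genotypes, so few aortic genes passed anywhere. At an unadjusted p under 0.05 stood 2 members in WT, 0 in KO and 0 on average. The shares of all genes at that p were 2.61%, 4.56% and 6.7%, and no test compared them with the members. The DESeq2 Wald test and edgeR's likelihood ratio test called 0 members in each. Igfbp1 did not pass the filter on low counts in aortas, with 0 to 12 counts per library.

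**Figure D3:**
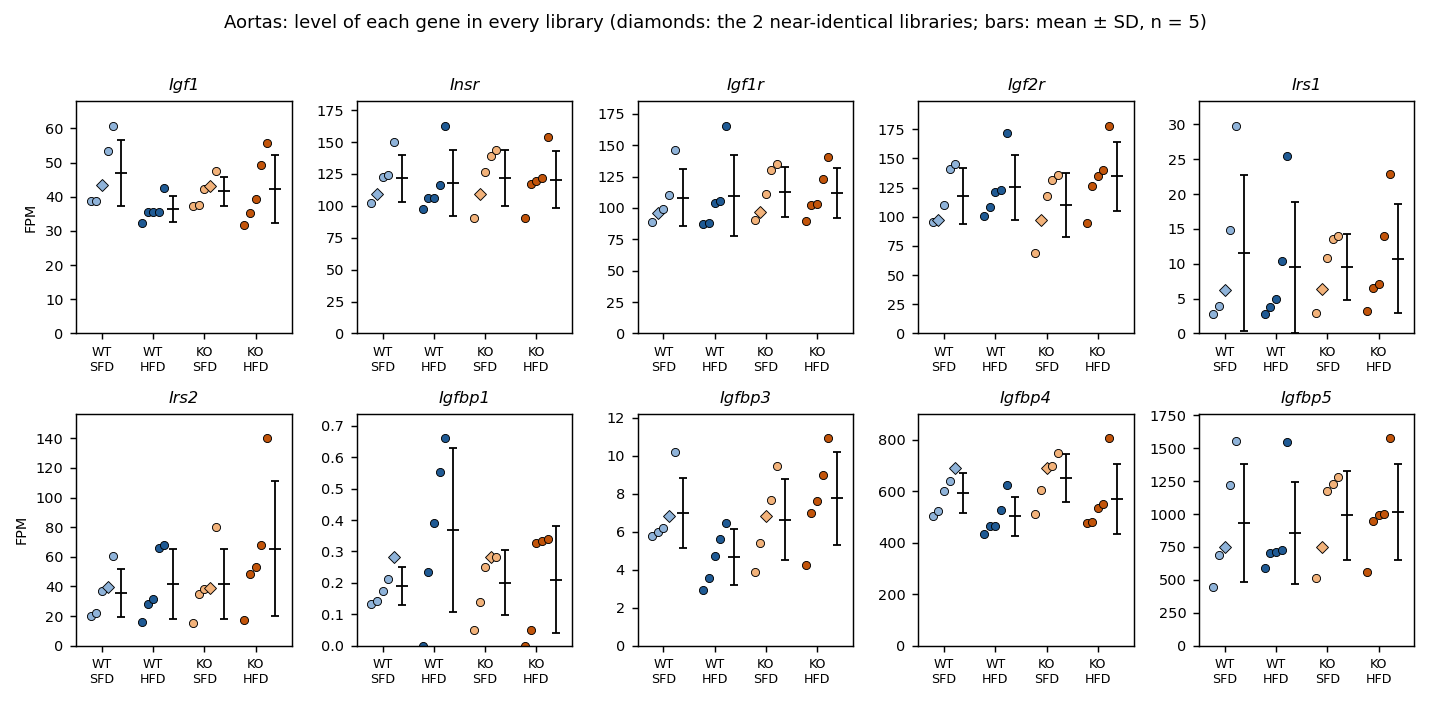
Level of each of the 10 genes in the 20 aortic libraries, in FPM on linear axes from 0, by genotype and diet. Points are libraries, diamonds the near-identical libraries R-1 and R-12, and bars the mean ± SD (n = 5 each). Groups overlap for all 10 genes, and R-10 lies above the rest of WT HFD for Insr (162 FPM), Igf1r (165 FPM) and Igfbp5 (1545 FPM).

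Igf1, made by fibroblasts and macrophages of the vessel wall, was at 43.4, 38.6, 38.6, 60.6 and 53.3 FPM in WT SFD aortas and at 42.7, 32.4, 35.6, 35.4 and 35.4 FPM in WT HFD aortas. The groups overlapped in 1 HFD library, and the log2 fold change of -0.37 had an unadjusted p of 0.0247 and an adjusted p of 1.00. In KO aortas it was 0.02 (adjusted p = 0.991). Igfbp3 was at 6.81, 5.80, 5.97, 6.20 and 10.2 FPM in WT SFD and at 2.92, 4.73, 3.56, 6.48 and 5.62 FPM in WT HFD aortas, which is -0.59 on the log2 scale (unadjusted p = 0.0457, adjusted p = 1.00). In KO aortas Igfbp3 had 0.23 (adjusted p = 0.987). Neither gene differed between diets beyond what the adjustment over all genes allows.

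The remaining members spread widely within groups in aortas. Irs1 ran from 2.81 to 29.8 FPM and Irs2 from 15.4 to 139.9 FPM over the 20 libraries, while Insr ran from 90.6 to 162 FPM. The highest Irs2 was in R-19 of KO HFD, which also had the highest summed immediate-early level (14055 FPM) and the highest Igfbp4 (805 FPM). Without R-19 the log2 fold change of Irs2 in KO was 0.15 instead of 0.65 (adjusted p = 0.987 in both). In 3 of the 4 groups 5 members, Insr, Igf1r, Igf2r, Irs1 and Igfbp5, were highest in the same library: R-5 in WT SFD, R-10 in WT HFD and R-20 in KO HFD. For Igfbp5, which is bound in extracellular matrix, these libraries had 1552, 1545 and 1574 FPM, where R-3, R-8 and R-16 of the same groups had 446, 589.6 and 556 FPM. Intervals for the diet were accordingly wide for Igfbp5 (-0.85 to 0.61 in WT) and narrow for Insr (-0.39 to 0.29). Of the 72 pathway genes, 61 could be tested in aortas and 0 were called for HFD in either genotype or on average. At an unadjusted p under 0.05 were 2 in WT, 3 in KO and 4 on average, against 2.61%, 4.56% and 6.7% of all genes.

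KO against WT asks how these genes differ with the Tie2-Cre deletion of EGFR, which Egfr levels in these libraries do not check. No member was called under either diet in either tissue. The background was also 0% of genes in each of these 4 comparisons and in both interactions. Without R-1 and R-12 it was 0.138% (21 genes) for KO against WT under HFD in aortas, with 0 members called, and stayed at 0% in the others without the pair of their tissue. R-1 and R-12 are SFD libraries and enter that HFD comparison only through the shared fit of all aortic libraries. At an unadjusted p under 0.05 stood Igfbp3 in aortas under HFD, Igfbp3 in the aortic interaction and Igf2r in kidneys under SFD, and 0 members in the other 3. The shares of all genes at that p were 5.85%, 0.84% and 2.67% in the comparisons named, in that order. In the other 3 they lay between 1.79% and 3.42%. The DESeq2 Wald test and edgeR's likelihood ratio test called 0 members in all 6. The pathway genes were called in none of the 6 by edgeR either, with between 1 and 5 at an unadjusted p under 0.05.

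**Figure D4:**
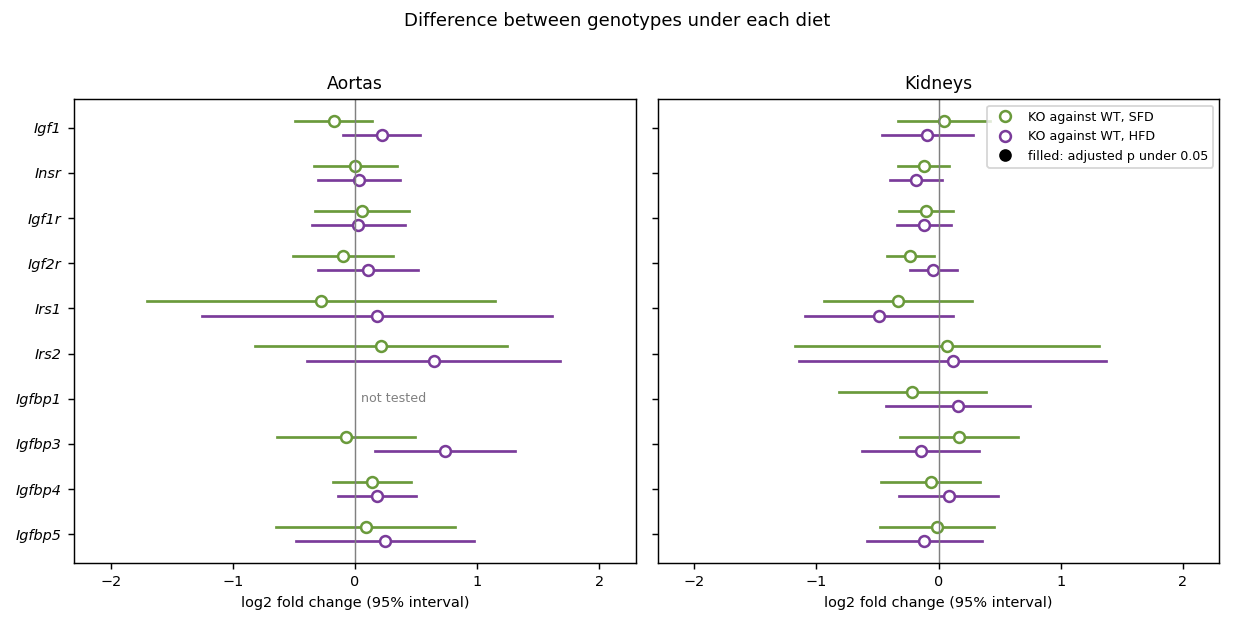
Log2 fold change of KO against WT with its 95% interval from edgeR for each gene, under SFD in green and under HFD in purple, aortas left and kidneys right. No point is filled, since no adjusted p was under 0.05, and Igfbp3 in aortas under HFD (0.74) and Igf2r in kidneys under SFD (-0.23) have intervals that leave out 0.

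Under HFD, Igfbp3 in KO aortas was at 4.26, 8.96, 10.9, 7.63 and 7.01 FPM, where 4 of 5 libraries lay above every WT HFD library. KO exceeded WT by 0.74 on the log2 scale (95% interval 0.16 to 1.31, unadjusted p = 0.0147, adjusted p = 0.662). All 9 members tested in this comparison had values above 0, from 0.03 to 0.74, with a median of 0.18 against 0.0088 for all genes. None of them was called, and the share of all genes above 0 is not given here. In kidneys under HFD, 7 of 10 members were lower in KO and 3 higher. The interaction for Igfbp3 in aortas, which asks whether the diet acted differently in KO, was 0.81 (95% interval 0.01 to 1.62, unadjusted p = 0.0485, adjusted p = 1.00). With a score of 13 adipocyte genes as covariate these were 0.67 (adjusted p = 1.00) and 0.93 (adjusted p = 0.727). Summed adipocyte markers had a median of 740.0 FPM in KO HFD and 860.4 FPM in WT HFD aortas. The comparisons of Igfbp3 by diet in WT and by genotype under HFD share the WT HFD libraries and are not independent of each other.

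In kidneys under SFD, Igf2r in KO, given above, lay between 108 and 120 FPM and so below every WT library. The difference was -0.23 on the log2 scale, with an unadjusted p of 0.0210 and an adjusted p of 1.00. This comparison and that of diet in WT use the same WT SFD libraries. Under HFD the genotypes were at 105 ± 3.45 FPM in WT and 102 ± 18.99 FPM in KO (SD, n = 5), a log2 fold change of -0.04 (95% interval -0.23 to 0.15). For Insr the intervals of KO against WT were -0.33 to 0.09 under SFD and -0.39 to 0.03 under HFD in kidneys, and -0.34 to 0.34 and -0.30 to 0.37 in aortas. A change of 1.5-fold either way therefore lies outside the interval in each of these 4. In kidneys under HFD and in aortas under SFD, however, both groups compared hold 1 library of the near-identical pair. Intervals without the pair are not given here, neither for Insr nor for Igf2r under HFD. For Irs1 and Irs2 the intervals reach beyond a 2-fold change in at least 1 comparison in both tissues, and nothing firm can be said of them at this spread.

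Compared per length (FPM per kb of exon), Igfbp4 and Igfbp5 were among the 3 most abundant members in both tissues, while Igfbp3 and Igfbp1 stood far lower in aortas. The tissues were counted in separate tables and their levels stand side by side without a test. In aortas the medians over 20 libraries were 141 for Igfbp5 and 123 for Igfbp4, whose ranges overlapped, and both lay above every other member in every library. There followed Igf2r (13.1), Insr (8.59), Igf1r (6.17), Irs2 (6.14), Igf1 (3.94), Igfbp3 (2.03), Irs1 (0.745) and Igfbp1 (0.158), each overlapping the next. In kidneys Igfbp4 was highest at 233, above all others in every library, ahead of Igfbp3 (94.6) and Igfbp5 (57.8), which overlapped each other. Receptors and Igfbp1 formed a middle range, with Igf2r at 11.8, Igf1r at 10.96, Igfbp1 at 7.30 and Insr at 6.45, and Irs2 at 4.03 overlapped it. Igf1 (0.762) and Irs1 (0.397) were lowest and lay below Irs2 in every library. Side by side, Igfbp1, Igfbp3, Igfbp4 and Igf1r had higher medians per length in kidneys, and Igf1, Insr, Igf2r, Irs1, Irs2 and Igfbp5 in aortas.

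**Figure D5:**
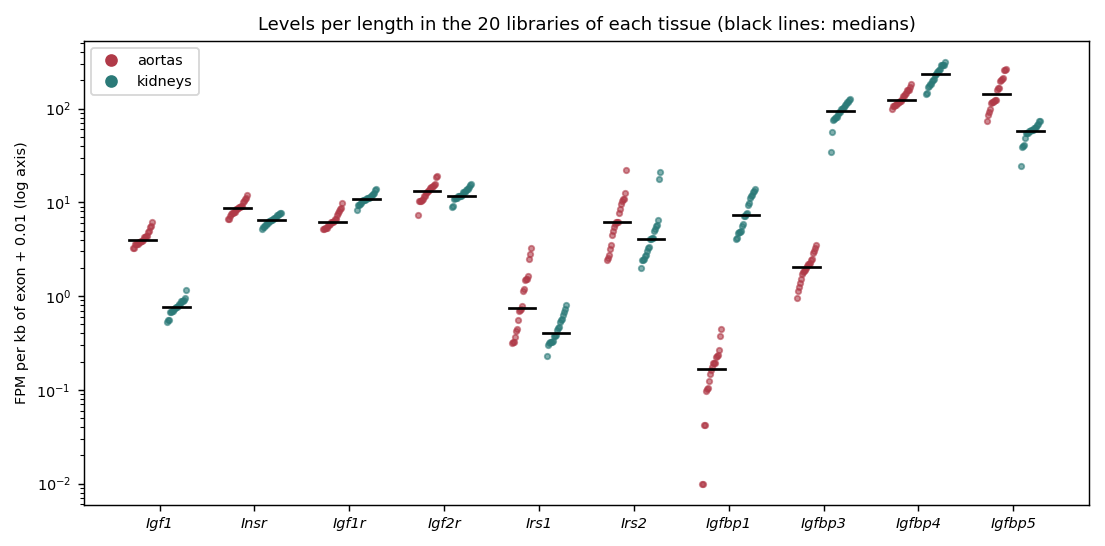
Levels per length of the 10 genes in 20 aortic (red) and 20 kidney (green) libraries, as FPM per kb of exon plus 0.01 on a log axis. Points are libraries and black lines medians, with Igfbp3 at 2.03 in aortas and 94.6 in kidneys and Igf1 at 3.94 and 0.762.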

How the data were processed

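Counts per gene, unnormalized, were deposited by the authors for paired-end reads on GRCm38/mm10, counted with featureCounts. The submitters' notes name HISAT2 2.1.0 for mapping and the methods TopHat2. Strand setting and treatment of reads with several positions are not given in the sources used here. Groups came from the labels. Each tissue (20 libraries, 4 groups) was fitted in edgeR 4.0.16 (R 4.3.3) with filterByExpr, TMM and a robust quasi-likelihood test, with Benjamini-Hochberg adjustment over all genes tested, tested on simulated data. FPM are counts scaled by the TMM library size. Gene positions and exon lengths came from GENCODE M21 (55154 of 55397 IDs found). Alternatives were the DESeq2 1.42.0 Wald test, the likelihood ratio test, other normalization, filters, thresholds and covariates, and libraries left out. The members and lists were chosen with earlier results of these data known. Named were all 10 members, pathway genes called (12 with the smallest p where more were) and the 3 genes most like each called member. P-values measure the spread between libraries labelled as separate mice.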

Additional observations from a re-analysis of the deposited data

Results flagged for a closer look

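Single libraries stood apart from the other 4 of their group in 9 of 80 group values by Dixon's criterion at 95%, where chance gives about 1 in 20, or 4. In aortas these were R-10 of WT HFD for Insr (162 FPM, next 116), Igf1r (165 FPM, next 106) and Igfbp5 (1545 FPM, next 724), R-5 of WT SFD for Igfbp3 (10.2 FPM, next 6.81) and R-19 of KO HFD for Igfbp4 (805 FPM, next 552). In kidneys they were a17 of WT SFD and a8 of KO SFD for Irs2 (131 FPM, next 32.4, and 112 FPM, next 35.9), a18 of WT SFD for Igfbp1 (21.1 FPM, next 7.53), and a6 of KO SFD for Igfbp5, which was low (236 FPM, next 343). The rate of 1 in 20 holds for independent values with a normal spread. Here members share libraries, as with R-10, and all of these values but that of a6 were high. No excess over 4 is therefore claimed, and the causes were not tested.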

How the results depend on the processing

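For HFD in KO kidneys, where 0 members were called, the DESeq2 Wald test, the likelihood ratio test and a fit of the compared groups alone called 1 each (Igfbp1, adjusted p = 0.0157, 0.0221 and 0.00482), and a clock score as covariate 2. The shares of all genes called under these alternatives are not given here, so their counts of members cannot be set against a background. Leaving out each library gave 0 to 2 there, and 1 to 2 in WT, with 2 in KO without a3 and in WT without a18, and 1 in KO without a8. Requiring a fold change over 1.5 and 5 FPM left 0 in WT and 1 on average, since Igf2r fell short of the fold. On average over genotypes 2 were called without any single library. The counts of 0 in aortas and for KO against WT and the interactions stayed 0 under every alternative run. No log2 fold change with an unadjusted p under 0.05 changed sign. Of the 105 others, 59 changed sign under at least 1 alternative and 4 were called under at least 1. No paired analysis was possible because the groups share no replicate numbers. With 5 libraries a group, the 95% intervals of Irs1, Irs2 and Igfbp5 in aortas reach beyond a 1.5-fold change. In at least 1 aortic comparison so do those of Igf1 (to -0.69 for HFD in WT), Igf2r (to 0.70 for HFD in KO) and Igfbp3 (to 1.31 for KO under HFD), on the log2 scale.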
